A study of Sus scrofa with 12 samples.

Results

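The genes described here are PPARA and 7 genes of fatty acid handling that it is known to control in liver: FABP1, ACAA1, ACAA2, CPT1A, PDK4, ANGPTL4 and PLIN2. Every probe set of the porcine array annotated with 1 of these 8 symbols was taken, which gave 11 of 24123 probe sets and 8 of the 6765 genes named on the array. PPARA, PDK4 and ANGPTL4 had 2 probe sets each and the other genes 1. Of the 11, 10 passed the filter on low signals and belong to the 16000 probe sets tested. The second probe set of PPARA did not pass.

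Liver RNA was measured in 12 adult German Landrace pigs, 1 array per animal. Stress response, low or high, was crossed with aggressiveness, low or high, and groups are named in that order, so that high-low 3 is an animal with high stress response and low aggressiveness. Each of the 4 groups held 3 animals, 1 female and 2 males, and each level of a factor therefore held 6. How either trait was scored is not stated in the labels, and no treatment, genotype or exact age is given for any group. The number in an animal's name is not a label and pairs nothing.

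PPARA encodes a nuclear receptor that binds fatty acids and pairs with RXR receptors on its target genes. In liver it is known for turning on the genes of fatty acid uptake, oxidation and ketone body formation in fasting. Long-chain fatty acids are carried in the cytosol by FABP1, enter mitochondria through the carnitine shuttle that starts with CPT1A, and are shortened by beta-oxidation, whose last step is done by thiolases. Most of this knowledge comes from mouse, rat and human liver.

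The arrays had been scaled to a common mean before deposit, and their median signal lay between 93.3 and 117.4. With 1 array per animal, precision is limited by the number of animals. The lowest median correlations with the other arrays were 0.9545 for high-high 3, 0.9555 for low-high 3 and 0.9569 for high-low 3. Among markers of liver cell types, 11 of 13 hepatocyte genes were on the array and all 11 were tested. Their summed signal ran from 374724 to 436118 at high stress response and from 341686 to 516516 at low stress response, so that the groups overlapped. The sums of the other marker lists overlapped between the stress response levels as well. Sums over 9 tested Kupffer cell and macrophage markers were 32044 to 40251 at high and 30213 to 38793 at low, and over 7 endothelial markers 7325 to 14776 and 9913 to 12693. For 5 cholangiocyte markers they were 3135 to 4131 and 2850 to 5599, for 4 adipocyte markers 1809 to 2620 and 2130 to 2557, for 6 blood cell markers 1355 to 3006 and 904 to 2457, and for the 1 tested muscle marker 33.9 to 87.9 and 49.7 to 113.3. Single markers hidden in these sums had an unadjusted p under 0.05 for stress response. The macrophage receptor CD163 averaged 1919 ± 358 at high and 1300 ± 326 at low (SD, n = 6 per level), a log2 fold change of 0.57 ± 0.18 (SE; limma, adjusted p = 0.523). The macrophage receptor MARCO, at 31.97 ± 16.5 and 64.6 ± 21.6 (SD, n = 6 per level), had -0.78 ± 0.25 (SE; limma, adjusted p = 0.523). The bile duct marker PROM1, at 36.3 ± 37.5 and 74.0 ± 14.1 (SD, n = 6 per level), had -1.07 ± 0.34 (SE; limma, adjusted p = 0.523). At high stress response MARCO and PROM1 averaged below 40.6, the lowest mean signal kept, so they passed the filter through the animals with low stress response. Of the 9 tested macrophage markers 4 had a log2 fold change above 0 and 5 below. Of the 5 bile duct markers 2 were above and 3 below. The part of these single markers in the results on the 8 genes was not tested. Of the adipocyte markers, ADIPOQ was below the filter, with a median signal of 34.1. Signals of different probe sets are not compared with each other, since probes differ in brightness.

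Signals of PPARA, FABP1, both thiolases, PDK4 and ANGPTL4 averaged less in animals with high stress response, and those of CPT1A and PLIN2 more. None of the 8 genes passed the test over all probe sets. For stress response, 0 of 16000 probe sets passed an adjusted p of 0.05 (0%), with a smallest adjusted p of 0.339. Of the 8 genes, 6 had a log2 fold change below 0 and 2 above, where 44.3% of all tested probe sets were below 0. Their median was -0.32, and that of all probe sets was 0.03. An unadjusted p under 0.05 was reached by FABP1 and ACAA2, both lower, where 3.12% of all probe sets reached it as lower and 8.16% in either direction. In none of the 8 genes were the 6 animals with high stress response fully separated from the 6 with low. Among all probe sets 0.15% were separated with the high group below, and 0.388% with it above. All log2 fold changes are on the scale log2(signal + 16), from limma with aggressiveness and sex in the model.

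**Figure D1:**
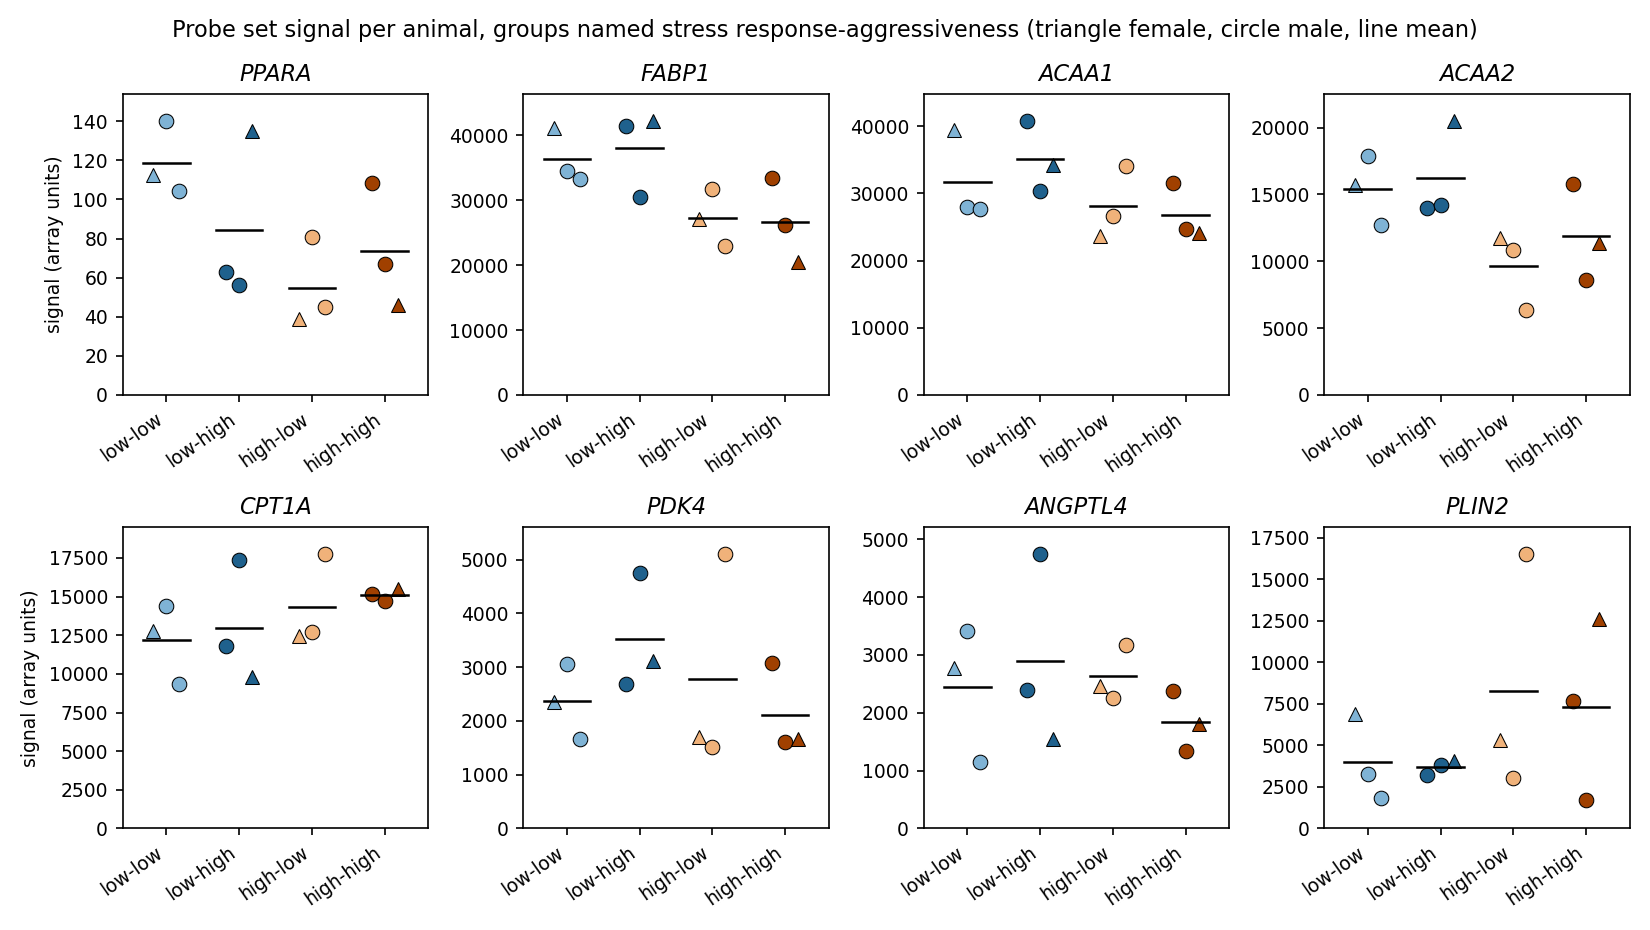
Signal of each gene (vertical axis, linear array units) in each animal of the 4 groups (horizontal axis), with triangles for females, circles for males and a line at the group mean of 3 animals. FABP1 in all 6 animals with high stress response lies below the median of those with low, and PLIN2 is far above the rest in high-low 3 and high-high 3.

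PPARA, the receptor, was measured by a probe set near the filter on low signals. With low stress response its signals were 112.3, 140.2 and 104.2 in the low-low animals 1 to 3, and 62.7, 56.2 and 134.9 in the low-high animals. With high stress response they were 38.9, 80.6 and 44.9 in the high-low animals and 108.6, 67.2 and 45.8 in the high-high animals. The 3 low-low animals lay above all 3 high-low animals, while low-high and high-high animals overlapped with each other and with the rest. The share of all probe sets that separate a pair of groups was not counted, here or in the later comparisons of groups. By group mean the order was low-low, low-high, high-high and high-low, and each neighbouring pair of groups overlapped. Averages were 64.4 ± 26.8 in the high and 101.7 ± 35.5 in the low animals (SD, n = 6 per level). Modelled with limma, this gave a log2 fold change of -0.55 ± 0.27 (SE; limma, adjusted p = 0.628). In whole liver, fewer cells of a type and less RNA per cell cannot be told apart.

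PPARA moved with a measure of RNA quality and with markers of another cell type over the 12 arrays, though neither relation passed when adjusted over the 96 relations computed between the 8 genes and 12 array measures. Relations of like size were found for FABP1 and ACAA1 with the tested muscle marker. Each had r = 0.65 (permutation p = 0.0236 and 0.0247, adjusted p = 0.594 for both). With the log2 sum of 7 tested stellate cell and fibroblast markers PPARA had r = -0.73 (permutation p = 0.00696, adjusted p = 0.594) and rho = -0.70 (permutation p = 0.0144, adjusted p = 0.506). This r was -0.62 within high and -0.94 within low stress response, and -0.61 without high-low 1 and low-high 2, the animals farthest from the median of that sum. With the mean log2 ratio between the 3' and 5' ends of control transcripts it had r = 0.67 (permutation p = 0.0153, adjusted p = 0.594) and rho = 0.68 (permutation p = 0.0190, adjusted p = 0.506). That r was 0.92 within high and 0.44 within low stress response, and 0.53 without high-high 1 and high-low 1. With the ratio of the control transcript EF1A alone, which is part of that mean, PPARA had r = 0.11 and rho = -0.06. Animal high-low 1, which had the lowest PPARA signal, also had the lowest mean ratio, 1.99, and the highest marker sum, 10480. Animal low-low 2, with the highest PPARA signal, had the lowest marker sum, 4163. With the ratio of 3' to 5' signal as a covariate the log2 fold change of PPARA was -0.42 ± 0.18 (SE; limma, unadjusted p = 0.0383, adjusted p = 0.637). Without that covariate it was -0.55 ± 0.27 (SE; limma, unadjusted p = 0.0608). The sums of the stellate cell and fibroblast markers ran from 5027 to 10480 at high and from 4163 to 8839 at low stress response, and their part in the result was not tested. In males alone the log2 fold change of PPARA was -0.20, and without the 3 arrays of lowest correlation it was -0.24.

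The second PPARA probe set had signals from 4.04 to 36.1, below the filter. Its signals did not follow those of the first probe set over the 12 arrays (Pearson r = -0.07). Its 3 low-low animals, at 36.1, 36.1 and 35.9, were above all 9 others. It was not tested, and the statements on PPARA rest on the first probe set alone.

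FABP1 encodes the fatty acid binding protein of the liver cytosol. Its signals at low stress response were 41129, 34424 and 33300 in the low-low and 41414, 30553 and 42207 in the low-high animals. At high stress response they were 27106, 31643 and 22923 in the high-low and 33343, 26156 and 20526 in the high-high animals. All 6 high animals lay below the median of the low animals, and the overlap came from high-low 2 and high-high 1, both above low-high 2 and the latter also just above low-low 3. Averages were 26950 ± 4920 in the high and 37171 ± 5007 in the low animals (SD, n = 6 per level). FABP1 thus had a log2 fold change of -0.47 ± 0.16 (SE), with a 95% confidence interval from -0.81 to -0.13 (limma, adjusted p = 0.534). By group mean, low-high was highest, then low-low, high-low and high-high. Of the neighbours, only low-low and high-low did not overlap.

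ACAA2, the thiolase of mitochondrial beta-oxidation, had a like pattern. With low stress response its signals were 15684, 17874 and 12744 in low-low and 13951, 14223 and 20500 in low-high animals. With high stress response they were 11739, 10831 and 6350 in high-low and 15777, 8626 and 11355 in high-high animals. Of the 6 high animals, 5 lay below the lowest low animal, and high-high 1 lay above the median of the low animals. Averages were 10780 ± 3178 in the high and 15829 ± 2886 in the low animals (SD, n = 6 per level). ACAA2 thus had a log2 fold change of -0.59 ± 0.19 (SE), with a 95% confidence interval from -1.02 to -0.16 (limma, adjusted p = 0.534). The group order was low-high, low-low, high-high and high-low, in which neighbours overlapped and the first and last group did not.

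ACAA1 encodes the thiolase of peroxisomes, which shorten very long fatty acids. Its signals were 39359, 27955 and 27717 in low-low, 40787, 30308 and 34203 in low-high, 23716, 26679 and 34136 in high-low and 31608, 24716 and 24028 in high-high animals. Of the high animals, 5 of 6 were below the low median, with high-low 3 as the exception, and all 4 groups overlapped. ACAA1 had a log2 fold change of -0.28 ± 0.15 (SE; limma, adjusted p = 0.676). In males alone it was -0.11.

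CPT1A, the outer-membrane carnitine palmitoyltransferase that commits fatty acids to mitochondria, went the other way. Its signals were 12798, 14368 and 9369 in low-low and 11779, 17382 and 9829 in low-high animals. They were 12447, 12736 and 17733 in high-low and 15168, 14705 and 15518 in high-high animals. All 6 high animals exceeded the median of the low animals, yet low-high 2 was higher than 5 of them. The 3 high-high animals were close together, at 15130 ± 408 (SD, n = 3), and above all 3 low-low animals. CPT1A had a log2 fold change of 0.25 ± 0.17 (SE; limma, adjusted p = 0.726). Without high-high 3 and high-low 3 it was 0.14, and without low-high 3 as well 0.06.

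PDK4 encodes a kinase that shuts off pyruvate dehydrogenase and so spares glucose when fatty acids are burned. Its brighter probe set gave 2362, 3064 and 1665 in low-low and 2693, 4747 and 3116 in low-high animals. At high stress response it gave 1710, 1510 and 5099 in high-low and 3071, 1600 and 1666 in high-high animals. Single animals set the extremes, with high-low 3 highest, low-high 2 next, and 4 high animals between 1510 and 1710. For stress response its log2 fold change was -0.36 ± 0.33 (SE; limma, adjusted p = 0.825). Without high-low 3 it was -0.64, and without high-high 2 it was -0.21. The second probe set had -0.30 ± 0.37 (SE) and correlated with the first at r = 0.85 over the 12 arrays.

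ANGPTL4 encodes a secreted inhibitor of lipoprotein lipase. Its brighter probe set gave 2765, 3415 and 1141 in low-low and 2401, 4737 and 1554 in low-high animals. In high-low animals the signals were 2464, 2250 and 3170, and in high-high animals 2374, 1347 and 1798. The lowest and the highest animal, low-low 3 and low-high 2, both had low stress response. For stress response its log2 fold change was -0.15 ± 0.33 (SE; limma, adjusted p = 0.944). It turned above 0 without low-high 2, at 0.08, and without high-high 2, at 0.0035. The second probe set followed the first closely (r = 0.98) and had -0.11 ± 0.32 (SE).

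PLIN2 encodes a coat protein of lipid droplets and had the widest spread, 9.52-fold between the lowest and the highest animal, against 1.72-fold for ACAA1, the narrowest. Its signals were 6885, 3259 and 1855 in low-low, 3199, 3786 and 4048 in low-high, 5300, 3010 and 16484 in high-low and 7652, 1732 and 12606 in high-high animals. The highest 3 animals, high-low 3, high-high 3 and high-high 1, had high stress response, and so did the lowest, high-high 2. It averaged 7797 ± 5737 in the high and 3839 ± 1674 in the low animals (SD, n = 6 per level). PLIN2 had a log2 fold change of 0.74 ± 0.49 (SE; limma, adjusted p = 0.723). It was 0.34 without high-low 3 and 0.17 without high-low 3 and high-high 3, but 1.08 without high-high 2, where its unadjusted p was under 0.05 (limma, adjusted p = 0.494). High-low 3 and high-high 3 also had the highest median array signals after low-high 3, 114.3 and 108.3 against 117.4.

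**Figure D2:**
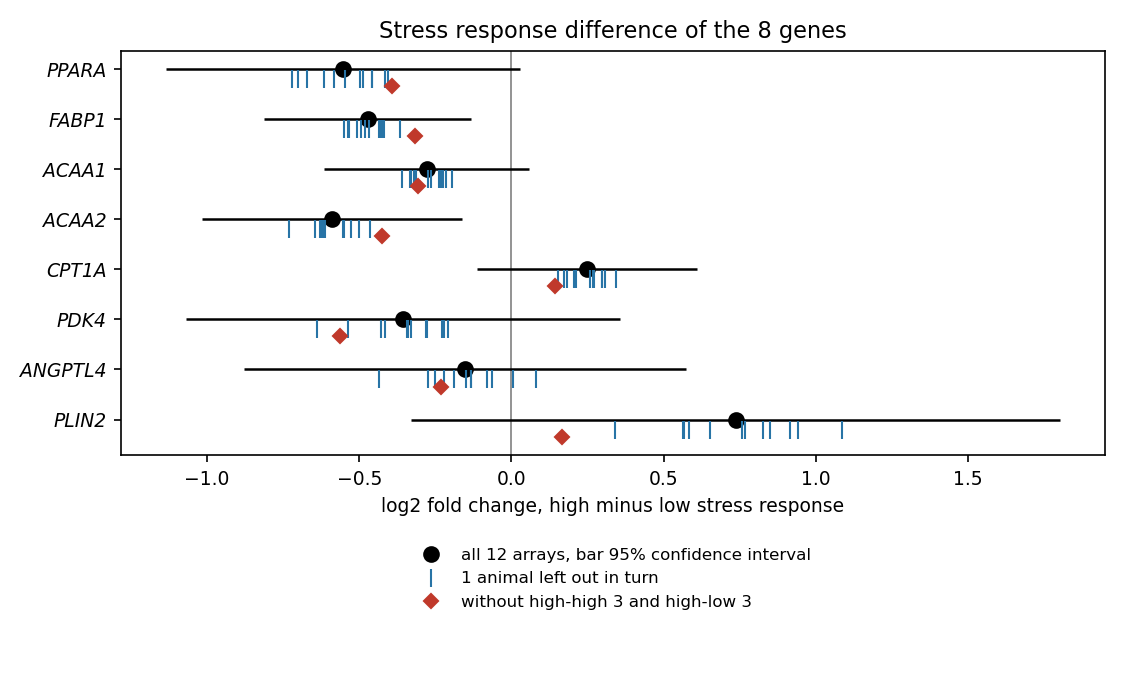
Log2 fold change between high and low stress response (horizontal axis) of each gene (vertical axis), with limma's 95% confidence interval, the values with 1 animal left out in turn as ticks, and the value without high-high 3 and high-low 3 as a diamond. FABP1 and ACAA2 have intervals below 0, and the diamond of PLIN2 lies at 0.17 against 0.74 with all arrays.

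The count of genes with an unadjusted p under 0.05 for stress response depended on the arrays used and on the processing. It was 2 of 8 with all arrays, 0 without high-high 3 and high-low 3, 0 in males alone, and 4 without high-low 3 alone. With all arrays it was 4 after median centring. PPARA joined FABP1 and ACAA2 after quantile normalization (limma, unadjusted p = 0.0413, adjusted p = 0.581). It also joined them with the ratio of 3' to 5' signal as a covariate (limma, unadjusted p = 0.0383, adjusted p = 0.637). In these and the later alternatives, the share of all probe sets with such a p was not counted. Without high-high 3 and high-low 3, 6 of the 8 genes had values below 0, with a median of -0.31. FABP1 was then at -0.32 and ACAA2 at -0.43. Both arrays belong to the high stress response group, and array and animal cannot be told apart. These arrays also had the highest PLIN2 signals. Low-high 3, whose median correlation with the other arrays lay between theirs, was kept in that setting. With low-high 3 left out as well, FABP1 was at -0.29 and ACAA2 at -0.37. The share of all probe sets below 0, and their median, were computed with all arrays only. They were not computed for the alternatives here or for those of the gene lists below.

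None of the 8 genes stood out between the levels of aggressiveness. For aggressiveness 0 of 16000 probe sets passed (limma, 0%), and none of the 8 genes had an unadjusted p under 0.05, which 3.22% of all probe sets reached. The log2 fold changes ran from -0.15 to 0.19, with 5 above 0 and 3 below, where 48% of all probe sets were below. The largest was that of ACAA2, which averaged 14072 ± 4033 in animals with high and 12537 ± 4007 in those with low aggressiveness (SD, n = 6 per level), at 0.19 ± 0.19 (SE; limma, adjusted p = 1.00). In each of the 8 genes the levels of aggressiveness overlapped.

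Whether the stress response difference depended on aggressiveness was tested with an interaction term. None of the 8 genes had an unadjusted p under 0.05 for it, where 3.87% of all probe sets did, and 0% of all passed (limma). The count of genes became 1, PPARA, without low-high 3, in males alone, and without the 3 arrays of lowest correlation. The interaction furthest above 0 was that of PPARA, 0.83 ± 0.49 (SE; limma, adjusted p = 0.999). At low aggressiveness the stress response difference of PPARA was -0.97 ± 0.35 (SE; limma, adjusted p = 0.941), and at high aggressiveness it was -0.14 ± 0.35 (SE). The interaction's own p does not separate these values. PDK4 and ANGPTL4 had interactions of -0.80 ± 0.64 and -0.77 ± 0.65 (SE; limma, adjusted p = 0.999 for both). Single animals moved all 3 values. That of PPARA ran from 0.56 without high-high 1 to 1.30 without low-high 3, and was 0.45 with the ratio of 3' to 5' signal as a covariate. That of PDK4 ran from -1.20 without high-low 2 to -0.27 without high-low 3, and was -0.11 without high-high 3 and high-low 3. That of ANGPTL4 ran from -1.18 without low-high 3 to -0.23 without low-low 3, and was -0.34 without low-high 2.

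Within low aggressiveness PPARA and ACAA2 had an unadjusted p under 0.05, which is 2 of 8 genes against 5.12% of all probe sets. ACAA2 had -0.71 ± 0.28 (SE; limma, adjusted p = 0.941). Within high aggressiveness FABP1 did, at -0.53 ± 0.23 (SE; limma, adjusted p = 0.806), against 6.12% of all probe sets. In neither case did any probe set pass when adjusted (0% of all).

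Sex was the remaining term of the model. None of the 8 had an unadjusted p under 0.05 for sex (1 without high-low 3), which 5.21% of all probe sets reached, and 0.0687% of all passed when adjusted (limma). PLIN2 had the largest difference, -0.77 ± 0.52 for males minus females (SE; limma, adjusted p = 0.944). With 4 females against 8 males, the interval of that difference ran from -1.90 to 0.36.

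Over the 12 animals the 8 genes formed 28 pairs, whose log2 signals were correlated. Of these, 20 had a Pearson r above 0 and 8 below, with a median of 0.23 and a range from -0.61 to 0.75. An unadjusted permutation p under 0.05 was reached by 7 pairs, and none passed after Benjamini-Hochberg adjustment over the 28, the smallest adjusted p being 0.0897. The same arrays lie behind every pair, so that the pairs are not independent of each other.

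The 3 highest r values were those among PPARA, FABP1 and ACAA2, although none passed when adjusted. PPARA and FABP1 had r = 0.72 (permutation p = 0.00961, adjusted p = 0.0897) and Spearman's rho = 0.75 (permutation p = 0.00758, adjusted p = 0.0887). Without low-high 3 and low-low 2, the animals farthest from the median of PPARA, r was 0.68, and without high-high 3 and high-low 3, those farthest on FABP1, it was 0.59. Of all tested probe sets, 0.787% had an r at least as high with PPARA, and 1.9% with FABP1. The r was 0.79 within the 6 animals with high stress response and 0.30 within the 6 with low, and 0.57 for residuals after stress response, aggressiveness and sex.

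For PPARA and ACAA2, r was 0.70 (permutation p = 0.00900, adjusted p = 0.0897) and rho 0.73 (permutation p = 0.00950, adjusted p = 0.0887). Without low-high 3 and low-low 2 it was 0.53, and without high-high 2 and high-low 3, those farthest on ACAA2, 0.74. Its residual r, 0.69, was close to that of the log2 values. FABP1 and ACAA2 had r = 0.75 (permutation p = 0.00453, adjusted p = 0.0897) and rho = 0.80 (permutation p = 0.00260, adjusted p = 0.0728). Without high-high 3 and high-low 3, the animals farthest from the median of FABP1, r was also 0.75, and without high-high 2 and high-low 3 it was 0.67. Within stress response levels it was 0.55 at high and 0.44 at low, and for residuals 0.57.

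With its other known targets PPARA had weaker relations or relations of the opposite sign. Its r was 0.31 with ACAA1, 0.04 with PDK4, -0.18 with ANGPTL4, -0.36 with PLIN2 and -0.47 with CPT1A. The corresponding rho values were 0.39, 0.02, -0.14, -0.27 and -0.36. The lowest permutation p among these was 0.128, for the r of CPT1A (adjusted p = 0.322). The sign of PPARA with PDK4 turned when any of 4 single animals was left out.

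FABP1 and ACAA1 had r = 0.67 (permutation p = 0.0185, adjusted p = 0.104) and rho = 0.70 (permutation p = 0.0137, adjusted p = 0.0956). Without high-high 3 and high-low 3 r was 0.90, and without low-high 1 and low-low 1, the animals farthest from the median of ACAA1, it was 0.45. FABP1 and CPT1A had the lowest r of all pairs, -0.61 (permutation p = 0.0372, adjusted p = 0.149), with rho = -0.62 (permutation p = 0.0351, adjusted p = 0.174). It was -0.45 without high-high 3 and high-low 3 and -0.59 without low-high 3 and low-low 3. Within stress response levels this r was -0.52 at high and -0.49 at low.

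**Figure D3:**
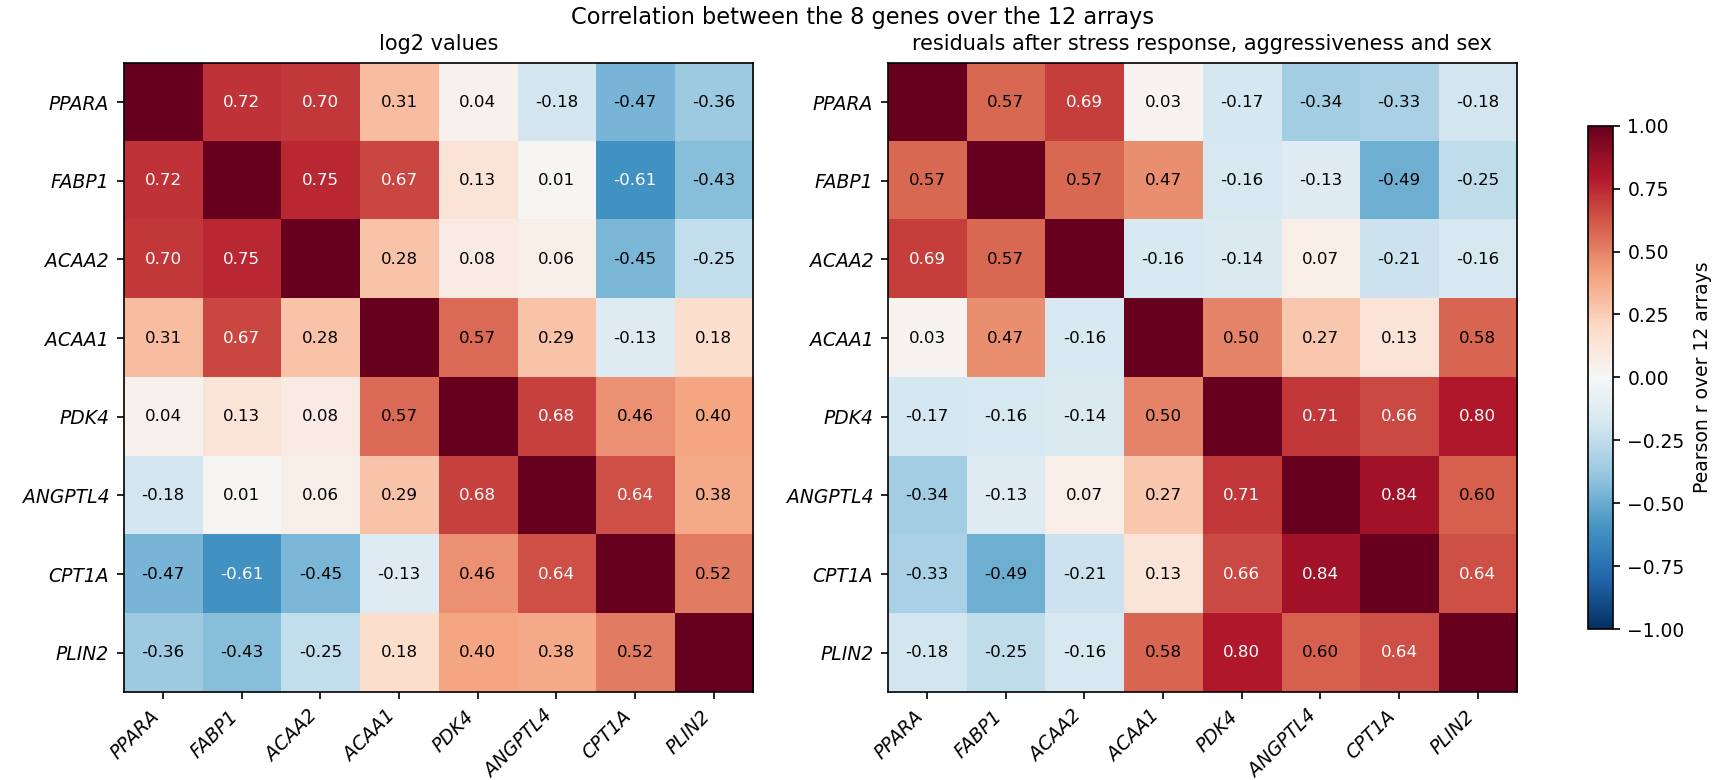
Pearson r over 12 arrays for each pair of the 8 genes (colour scale from -1 to 1), on the left from log2 signals and on the right from residuals after stress response, aggressiveness and sex. PPARA, FABP1 and ACAA2 form 1 block with r from 0.70 to 0.75, and PDK4, ANGPTL4, CPT1A and PLIN2 a second one that is stronger in the residuals. The blocks were read from these same values, and ACAA1 had r = 0.67 with FABP1 of the first and 0.57 with PDK4 of the second.

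PDK4, ANGPTL4, CPT1A and PLIN2 had r above 0 in all 6 of their pairs with all arrays, and between -0.47 and 0.04 with PPARA. They were grouped after these values were seen. ACAA1, which is not among them, had r = 0.57 with PDK4 (permutation p = 0.0564, adjusted p = 0.198) and rho = 0.60. Within stress response levels that r was 0.92 at high and -0.01 at low. CPT1A and PDK4 went from r = 0.46 to -0.04 without high-low 3 and low-high 2, and PDK4 and PLIN2 from 0.40 to 0.20 without these animals and to 0.13 without high-low 3 alone. PDK4 and ANGPTL4 had r = 0.68 (permutation p = 0.0148, adjusted p = 0.103) and rho = 0.62 (permutation p = 0.0372, adjusted p = 0.174). Without high-low 3 and low-high 2, the animals farthest from the median of PDK4, r was 0.45, and without low-high 2 and low-low 3 it was 0.51. CPT1A and ANGPTL4 had r = 0.64 (permutation p = 0.0234, adjusted p = 0.109) and rho = 0.50 (permutation p = 0.103, adjusted p = 0.288). It was 0.32 without low-high 3 and low-low 3, the animals with the lowest CPT1A signals, and 0.31 without low-high 2 and low-low 3, the extremes of ANGPTL4. With 1 animal left out it ran from 0.49 to 0.77.

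Residuals after stress response, aggressiveness and sex gave higher values in this block. CPT1A and ANGPTL4 then had r = 0.84 (permutation p adjusted over 28 pairs = 0.0101), and PDK4 and PLIN2 had 0.80 (adjusted p = 0.0279), against 0.40 in the log2 signals. Permuting residuals takes no account of the terms already fitted, so that these p-values are approximate. Within stress response levels CPT1A and ANGPTL4 had r = 0.98 at low and 0.19 at high, and PDK4 and PLIN2 0.67 at high and 0.36 at low.

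**Figure D4:**
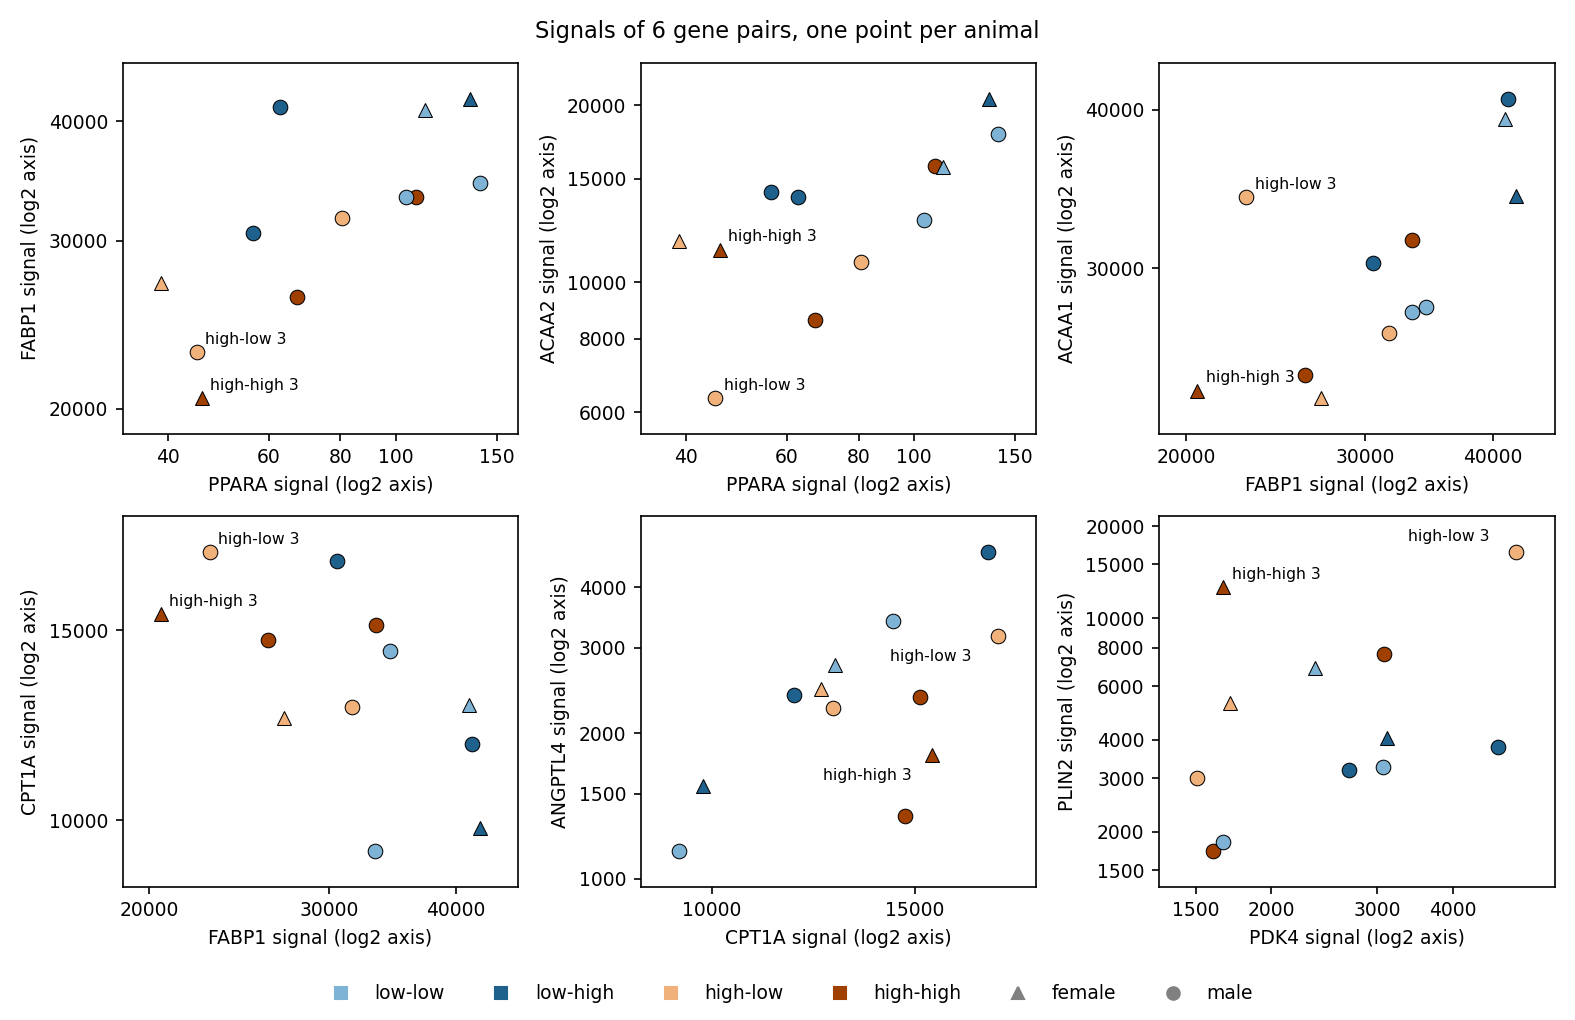
Signals of 6 pairs of genes with 1 point per animal, both axes on a log2 scale, coloured by group with triangles for females and circles for males. Animals with more PPARA signal tend to have more of FABP1 and ACAA2, those with more FABP1 less of CPT1A, and high-low 3 lies at the upper right for PDK4 and PLIN2.

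Genes outside the set were ranked by Pearson r with each member over the 12 arrays, among 5802 genes. The 5 most like PPARA were MPV17L2 (r = 0.88), CC2D1A (0.86), MARCH8 (0.85), TMEM38B (0.85) and FBXW4 (0.82). These 5 were taken as the highest of 5802 genes. That the 7 target genes had a lower r with PPARA was therefore all but set by the ranking. Most like FABP1 were TCEA3 (r = 0.94) and PSAT1 (0.94), and most like ACAA2 were ZNHIT2 (0.90) and POU2F1 (0.89). For ACAA1 they were ZC4H2 (r = 0.88) and POMC (0.82), and for CPT1A PPM1G (0.84) and EIF4EBP2 (0.84). PDK4 was followed most closely by SP110 (r = 0.89) and C8H4orf33 (0.84), ANGPTL4 by UBE2D4 (0.89) and DHRS4 (0.88), and PLIN2 by TMEM248 (0.95) and POGLUT1 (0.89). With 12 arrays and 5802 genes such values are a description.

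The other genes of the pathway were followed in 10 lists, and no listed gene passed for stress response when adjusted over all probe sets (limma, 0 of 16000). Of 17 tested genes of mitochondrial beta-oxidation, 16 had a log2 fold change below 0 and 1 above, with a median of -0.15, where 44.3% of all probe sets were below 0. ACAD11, an acyl-CoA dehydrogenase, had -0.44 ± 0.18 (SE; limma, adjusted p = 0.579). DECR1, the reductase for unsaturated fatty acids, had -0.38 ± 0.16 (SE; limma, adjusted p = 0.586). The dehydrogenases ACADM and ACADVL, for medium and very long chains, had -0.11 ± 0.11 and -0.05 ± 0.24 (SE). The median was -0.07 without high-high 3 and high-low 3, -0.07 without high-high 3 alone and -0.10 without high-low 3 alone. In males alone 11 of the 17 were below 0, with a median of -0.06.

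All 9 tested genes of peroxisomal oxidation were below 0, with a median of -0.16. AMACR, the racemase for branched fatty acids, had -0.70 ± 0.30 (SE; limma, adjusted p = 0.586), and PHYH, which starts the breakdown of phytanic acid, had -0.20 ± 0.10 (SE; limma, adjusted p = 0.652). Without high-high 3 and high-low 3, 8 of 9 were below 0 with a median of -0.07, and without high-high 3 alone the median was -0.06. Of the ketogenesis list 2 genes were tested, the hydroxybutyrate dehydrogenases BDH2 at -0.45 ± 0.14 (SE; limma, adjusted p = 0.523) and BDH1 at -0.33 ± 0.24 (SE). BDH2 was at -0.40 and BDH1 at -0.06 without high-high 3 and high-low 3, and the median of the pair went from -0.39 to -0.23.

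**Figure D5:**
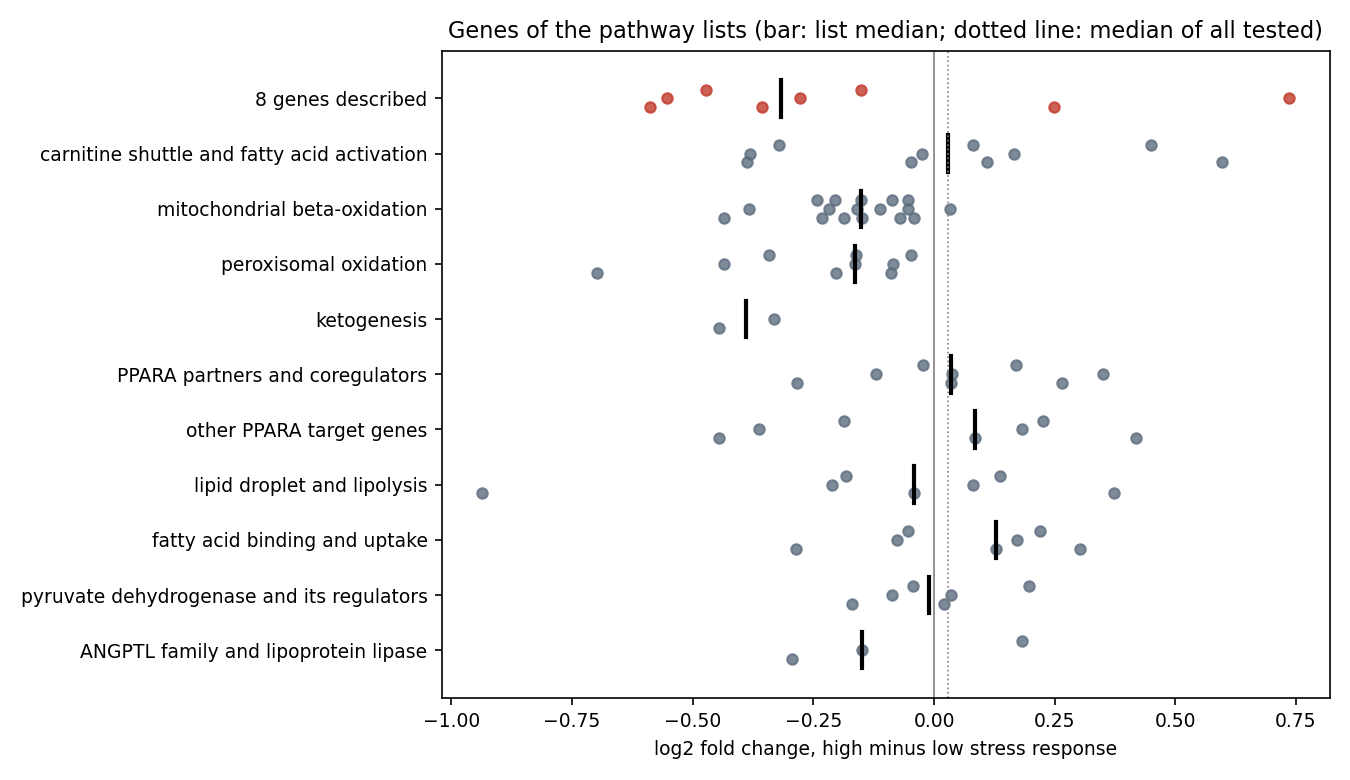
Log2 fold change between high and low stress response (horizontal axis) of the tested genes of each pathway list (rows), 1 point per gene, with a bar at the list's median and a dotted line at the median of all tested probe sets. The 9 peroxisomal genes and 16 of 17 mitochondrial genes lie below 0, and the remaining larger lists lie on both sides.

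The remaining lists were split. Of 10 genes of the carnitine shuttle and fatty acid activation, 5 were below 0 and 5 above, with a median of 0.03. The carnitine transporter SLC22A5 had -0.39 ± 0.15 (SE; limma, adjusted p = 0.572), and CPT1C, a form known from brain, had 0.60 ± 0.29 (SE; limma, adjusted p = 0.628). Of 8 partners and coregulators of PPARA, 3 were below 0 and 5 above. Its partner RXRA had 0.35 ± 0.26 and the corepressor NCOR1 0.27 ± 0.15 (SE), and neither had an unadjusted p under 0.05. Of 7 other known targets, 3 were below 0 and 4 above. Glycerol kinase, GK, had 0.42 ± 0.15 (SE; limma, adjusted p = 0.555), and GPD1, glycerol-3-phosphate dehydrogenase, had -0.36 ± 0.21 (SE). The split of these 7 turned to 4 below and 3 above without high-high 3 and high-low 3, with GPD1 at -0.07 and GK at 0.36, while RXRA was at 0.21 and NCOR1 at 0.12.

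Among 7 genes of lipid droplets and lipolysis, 4 were below 0 and 3 above. The droplet protein PNPLA3 had -0.94 ± 0.51, and ABHD5, the activator of the triglyceride lipase PNPLA2, had 0.37 ± 0.20 (SE). Of 7 genes of fatty acid binding and uptake, 3 were below 0 and 4 above, among them ACBD3 at 0.30 ± 0.13 (SE; limma, adjusted p = 0.577) and FABP4, the adipocyte form, at 0.22 ± 0.19 (SE). FABP4 signals lay between 194.3 and 500.9. When high-high 3 and high-low 3 were left out, ABHD5 was at 0.16, ACBD3 at 0.21 and FABP4 at 0.12, and 5 of the 7 genes of binding and uptake were below 0. Of 6 genes of pyruvate dehydrogenase and its regulators, the target of PDK4, 3 were below 0 and 3 above, with the subunits DLAT at 0.20 ± 0.10 and PDHB at -0.17 ± 0.12 (SE). Without the same arrays 5 of the 6 were below 0, with DLAT at 0.23 and PDHB at -0.10. The ANGPTL family and lipoprotein lipase list had 3 tested genes, among them LIPC, the hepatic lipase, at -0.30 ± 0.14 (SE; limma, adjusted p = 0.625) and ANGPTL2 at -0.15 ± 0.19 (SE).

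For aggressiveness no listed gene had an unadjusted p under 0.05. BDH2 had -0.25 ± 0.14 (SE; limma, adjusted p = 1.00) and BDH1 -0.28 ± 0.24 (SE). AMACR had -0.43 ± 0.30 and SCP2, a peroxisomal sterol carrier and thiolase, -0.13 ± 0.10 (SE). The coactivator NCOA2 had 0.23 ± 0.13 and RXRB 0.21 ± 0.15 (SE). The lipase PNPLA2 had 0.35 ± 0.23, LIPC -0.25 ± 0.14 and FABP5 -0.57 ± 0.34 (SE). Among cell type markers, the 5 tested bile duct genes had log2 fold changes from -0.89 to 0.75 for aggressiveness. Of these, 2 were higher and 2 lower with an unadjusted p under 0.05, which 3.22% of all probe sets reached (limma). None passed when adjusted, and no gene of the other marker lists had such a p.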

How the data were processed

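Total RNA of 12 livers was extracted with TRI Reagent and cleaned on RNeasy columns, and biotinylated cRNA was hybridized, per the labels' protocols. The authors deposited 1 linear intensity per probe set and array, made with GCOS 1.1.1 per the submitters' processing notes. How probes were summarised and arrays scaled is not given in the sources used here, but the mean after trimming 2% at each end was 500.2 on all arrays. No batch or scan information was used.

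Of 24123 probe sets, 124 controls and then 33.3% of the other 23999, those with the lowest mean, were left out. The lowest mean signal kept was 40.6. Signals were taken as log2(signal + 16). Among the 23999, 1 symbol was annotated to 10069 and several to 198, while 13732 carried none, and 9961 were matched to RefSeq, through which symbols were updated. A gene's probe set with the highest mean represents it. The genome build is not given, so no coordinates are used.

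limma 3.58.1 in R 4.3.3 was fitted with stress response, aggressiveness and sex (8 residual degrees of freedom). A second fit with 4 group means and sex gave the interaction and simple effects (7). P-values were adjusted by Benjamini-Hochberg over 16000 probe sets, and they measure the spread between these animals. Correlations used two-sided permutation tests with 100000 resamples in Python 3.11.15, and figures matplotlib 3.10.9. The fits were tested on simulated data.

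The members, the lists, the tests and the rule for named genes were chosen with earlier results of these data known. From each list the genes with the 2 smallest p for either factor are those that may be named; ADIPOQ, FABP4's signals, ACADM, ACADVL, CD163, MARCO and PROM1 were named outside that rule, after values were seen. Marker lists covered hepatocytes, Kupffer cells, endothelial, stellate and bile duct cells, adipocytes, blood and muscle.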

Additional observations from a re-analysis of the deposited data

Results flagged for a closer look

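In 40 groups of 6 animals, formed by the 10 tested probe sets and the levels of both factors, single animals were compared with the rest of their group. Chance alone places about 5 of 100 such groups beyond the limit used, and 3 were found, all in second probe sets. In the second probe set of PDK4, high-low 3 stood at 2505 among the animals with high stress response, whose other signals ran from 605.5 to 846.9. High-low 3 was also the highest animal in the brighter PDK4 probe set, at 5099. In the second probe set of ANGPTL4, low-high 2 stood at 1786 among the animals with high aggressiveness, whose others ran from 525.4 to 760.1. In the same probe set, low-low 3 stood at 420.1 among those with low aggressiveness, whose others ran from 850.7 to 1170. Both animals were also the extremes of the brighter ANGPTL4 probe set, at 4737 and 1141.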

How the results depend on the processing

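No paired analysis was possible because no label number pairs animals across groups. Leaving out high-high 3, low-high 3 and high-low 3 together, and using the second probe sets of ANGPTL4 and PDK4, were chosen after seeing the data; the other alternatives were models without sex or with the interaction kept, other filters, added constants of 1 and 64, median centring, quantile normalization, array weights, trend and robust variance, the ratio of 3' to 5' signal as a covariate, means over probe sets, males only and each animal left out. None of the 8 genes passed in any alternative that gave the effect, 27 each for stress response and aggressiveness, 25 for the interaction and 24 for sex, which males alone and the model without sex cannot test. Over all probe sets, the count past adjusted p for stress response was 0, and 0 to 1 with 1 animal left out (1 without low-low 3 or high-low 2); for aggressiveness it stayed 0. For the interaction it was 2 without high-high 3 and high-low 3, 1 without those and low-high 3, and 0 to 1 with 1 left out (1 without low-high 1 or high-low 3). For sex it was 11, 7 with the stricter filter on low signals, under which PPARA is not tested, and 10 to 12 with 1 left out. The number of genes with an unadjusted p under 0.05 for stress response was 4 after median centring. The median stress response difference of the 8 genes ran from -0.47 to -0.22 with 1 animal left out. For ANGPTL4 it ran from -0.43 to 0.080, turning above 0 without low-high 2 and, at 0.0035, without high-high 2; the other 7 genes kept their sign throughout. ACAA2 for aggressiveness was -0.014 without the 3 arrays. Of 28 pairs, 2 passed for residuals, 1 without high-high 3 and high-low 3 (FABP1 and ACAA1, r = 0.90), 1 without the 3 arrays (the same pair, 0.92), and 0 to 1 with 1 animal left out: PPARA and FABP1 at 0.85 without low-high 1, FABP1 and ACAA1 at 0.86 without high-low 3, and FABP1 and ACAA2 at 0.84 without high-high 3. PPARA and PDK4 had r = -0.17 for residuals, -0.025 for means over probe sets, -0.083 with second probe sets, -0.37 in males alone, and -0.10 to 0.30 with 1 animal left out. PPARA and ACAA1 had -0.38 in males alone, and PPARA and PLIN2 had 0.084 without high-high 3 and high-low 3 and 0.060 without the 3 arrays. The cause of these turns was not tested. PPARA, whose signals were 38.9 to 140.2, is the gene nearest to the filter of 40.6.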
